A study of Mus musculus with 2 samples.

Results

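Chromatin boundaries that lie on the promoter of a protein-coding gene were described in the nose's mature odorant-detecting cells, the olfactory sensory neurons (OSNs). Boundaries are the borders between neighbouring contact domains in a Hi-C map. They were chosen by position and score: a boundary entered when its 5 kb interval contained the 5′ end (transcription start) of at least 1 protein-coding gene record and the authors' boundary score was below 2. Of the 8058 boundaries in the deposited list, 585 met this rule, and they held the starts of 666 protein-coding genes. A single start lay in 505 of these intervals, 2 starts lay in 79 and 3 starts in 1. A further 18 boundaries on coding starts scored 2 or more and were left out. The 585 promoter boundaries were set beside the 19509 coding start intervals that carried no boundary at all, and, where useful, beside the 7455 boundaries with no coding start in their interval.

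The chromatin came from the olfactory epithelium of adult OMP-GFP mice of the 129P2/OlaHsd strain and mixed sex, in which a fluorescent reporter tied to the olfactory marker protein gene allows mature neurons to be sorted by FACS. There were 2 biological replicates in 1 group, of 3000000 and 1500000 cells, with no treatment and no second condition. In situ Hi-C, which joins and sequences DNA ends found near each other in the fixed nucleus, was made with 1% formaldehyde and the cutter DpnII. The authors pooled both replicates into 1 map before they called boundaries, so the replicates' spread cannot be measured and no comparison below carries a test. The files hold no expression values, so the sort could not be checked against OSN markers, and the contact depth behind the map is unknown here. Intervals around shares are exact (Clopper-Pearson, 95%) and those around medians are order-statistic intervals (95%), and both cover the counting of regions or genes only.

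Domain borders in mammals are commonly set where cohesin, which extrudes chromatin loops, is stopped by the zinc finger protein CTCF bound to DNA. Borders also occur at promoters of widely expressed genes, many of which lie in CpG islands, stretches where the dinucleotide CG has not been lost and DNA methylation is usually low. In OSNs each cell expresses a single olfactory receptor gene while the other receptor genes are packed in heterochromatin, and receptor gene promoters are poor in CG.

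The DNA at these promoters ranged from dense in CG to free of it, which the windows of 120 bases just upstream of 6 gene starts show. They are the windows of high-scoring promoter boundaries with a single start (Ahi1, Trim32, Nudt13 and Trim38) and of the genes Cetn2 and Klc3 in divergent pairs. Each is written 5′ to 3′ on the gene's strand of GRCm38, ends at the base before the start, and has every CG in capitals. The Ahi1 window (chr10:20952427-20952546, plus strand) holds 19 CG dinucleotides, the Trim32 window (chr4:65604866-65604985, plus strand) 9, the Nudt13 window (chr14:20294577-20294696, plus strand) 4 and the Trim38 window (chr13:23769793-23769912, plus strand) 0. The Cetn2 window (chrX:72918412-72918531, minus strand) holds 6 and the Klc3 window (chr7:19404105-19404224, minus strand) 11.
Ahi1: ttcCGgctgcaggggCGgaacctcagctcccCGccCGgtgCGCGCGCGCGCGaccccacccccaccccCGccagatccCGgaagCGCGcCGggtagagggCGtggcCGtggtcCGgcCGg
Trim32: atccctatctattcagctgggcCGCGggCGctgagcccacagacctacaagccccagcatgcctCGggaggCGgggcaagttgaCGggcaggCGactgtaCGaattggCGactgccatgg
Nudt13: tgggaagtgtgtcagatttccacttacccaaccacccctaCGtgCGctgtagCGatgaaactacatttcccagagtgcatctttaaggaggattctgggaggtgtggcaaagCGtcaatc
Trim38: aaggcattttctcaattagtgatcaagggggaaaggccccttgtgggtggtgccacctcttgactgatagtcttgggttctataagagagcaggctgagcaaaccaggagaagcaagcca
Cetn2: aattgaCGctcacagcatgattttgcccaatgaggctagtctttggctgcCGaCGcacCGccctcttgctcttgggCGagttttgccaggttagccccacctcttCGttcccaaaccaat
Klc3: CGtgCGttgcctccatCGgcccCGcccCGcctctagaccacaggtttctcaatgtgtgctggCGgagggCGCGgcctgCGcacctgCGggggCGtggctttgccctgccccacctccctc

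Over all 666 genes the upstream window held a median of 8 CG dinucleotides (quartiles 3 and 12), against 5 (quartiles 1 and 10) for the 21068 genes whose start interval had no boundary.

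The second set of sequences shows the CTCF core matches inside the interval of 5 of the highest-scoring promoter boundaries that have one. The core of 14 bases is in capitals with 8 flanking bases on each side, 5′ to 3′ on the strand of the match, in GRCm38. The match at Rbm45, an RNA-binding protein gene, is at chr2:76367336-76367365 (plus strand) and that at Smndc1, a splicing factor gene, at chr19:53394776-53394805 (plus strand). The match at AL731706.2 is at chr2:136887034-136887063 (minus strand), that at Mdk, which encodes the growth factor midkine, at chr2:91930201-91930230 (minus strand) and that at Ube4a, a ubiquitin ligase gene, at chr9:44969606-44969635 (plus strand).
Rbm45: acggtttcCCACTAGATGGCGCtggtgcgc
Smndc1: caaaacttCCACTAGGTGGCAGtcaggatc
AL731706.2: ccagaatgCCAGCAGATGGCGCccaggaaa
Mdk: gtcagtcaCCACTAGGGGGCAGgattttct
Ube4a: caattttcCCAGTAGGGGGCACtctgcaaa

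The third set shows matches to the ETS site, the letters that ETS family transcription factors recognise, because this was the motif whose share differed most, in percentage points, between the groups among CpG-rich promoters. They are 5 of the highest-scoring promoter boundaries with a match in the upstream window, chosen after the motif counts were seen. The site is in capitals with 10 flanking bases on each side, 5′ to 3′ on the gene's strand, so a site on the opposite strand reads as its reverse complement. The stretches lie at chr10:20952494-20952520 (Ahi1, plus strand), chr2:76369932-76369958 (Rbm45, plus strand), chr10:128015056-128015082 (Prim1, plus strand), chr4:107923686-107923712 (Cpt2, minus strand) and chr12:85339363-85339389 (Nek9, minus strand).
Ahi1: ccgccagatcCCGGAAGcgcgccgggt
Rbm45: cagaatgttcCCGGAAGcccgcagacc
Prim1: ttttcagagcCCGGAAGatgcagatgg
Cpt2: ttagagaccgCTTCCGGcccaggtggg
Nek9: ctaagaaccgCTTCCGGgtcagggggc

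Coding promoters held a boundary of score below 2 in 585 of 20112 intervals, which is 2.91%, against 1.52% of all 511497 intervals of the genome without undetermined bases. Counted by gene, 666 of 21755 protein-coding genes (3.06%) had their start in such a boundary. These shares follow from the rule and serve as the background for every count below. Over the 19 autosomes the share of coding start intervals averaged 2.95% ± 0.635 (SD over chromosomes), with the lowest value on chromosome 16 (1.47%, 9 of 612 intervals) and the highest on chromosome 12 (4.25%, 25 of 588). Chromosome X, with 19 of 902 intervals (2.11%), lay inside the autosomal range. Of the 19 promoter boundaries on X, 6 were Strong and the median score was 0.430.

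The score is the authors' own value, with no stated scale, and it is used here only to rank boundaries within the list. Promoter boundaries had scores from 0.205 to 1.96 with a median of 0.648 (0.602 to 0.702). Boundaries with no coding start and a score below 2 had a median of 0.477 (0.464 to 0.490, n = 7194). The authors' class Strong, which covers scores over 0.5, took 368 of 585 promoter boundaries (62.9%, 58.8 to 66.8%) and 3445 of the 7194 others (47.9%, 46.7 to 49.0%). The surplus lay in the middle of the scale. Scores from 0.5 to 1 held 39.0% of promoter boundaries against 29.0% of the others, scores from 1 to 1.5 held 18.5% against 12.9%, and scores from 1.5 to 2 held 5.47% against 6.05%. Because the score is part of the rule, these values are a description.

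**Figure D1:**
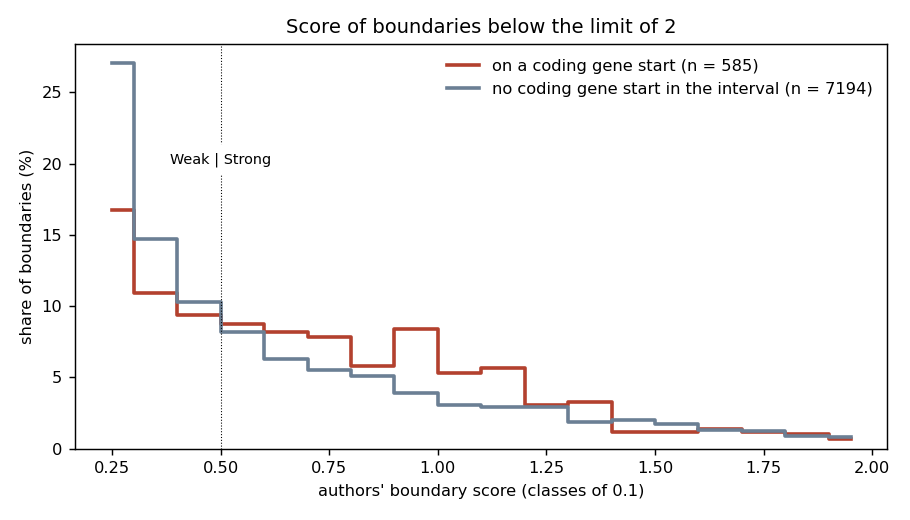
Share of boundaries (%, vertical axis) in classes of 0.1 of the authors' boundary score (horizontal axis), for the 585 boundaries on a coding gene start and for the 7194 boundaries below 2 with no coding start. The lowest class, 0.2 to 0.3, holds 16.8% of promoter boundaries and 27.1% of the others, and the dotted line marks the score that divides Weak from Strong.

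The promoter boundaries of highest score carried genes of many functions. Trim32, a ubiquitin ligase gene, scored 1.96 (chromosome 4 at 65600001 to 65605000), and its start lies at the very edge of the interval, at 65604986. Trim38, another ubiquitin ligase gene, also scored 1.96 (chromosome 13 at 23765001 to 23770000). Hk3, a hexokinase gene, scored 1.92 (chromosome 13 at 55020001 to 55025000) and Nudt13, a nudix hydrolase gene, 1.91 (chromosome 14 at 20290001 to 20295000). Gm6309 scored 1.89 (chromosome 5 at 146170001 to 146175000), as did Ahi1, a gene of the ciliary transition zone (chromosome 10 at 20950001 to 20955000). Anks6, which acts in primary cilia, scored 1.86.

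The rest of the 15 highest were of equally mixed kind. The interval shared by Ccdc77 and Kdm5a, a histone H3K4 demethylase gene, scored 1.84, Defb47, a beta-defensin gene, 1.81, and Adssl1, the muscle form of adenylosuccinate synthase, 1.804. Acbd6, an acyl-CoA-binding protein gene, scored 1.798. The pair of Ptcd2 and Mrps27, both of which act in mitochondrial gene expression, scored 1.78, Sftpb, which encodes lung surfactant protein B, 1.77, and Rbm45 and the olfactory receptor gene Olfr311 both 1.74. Of these 15 intervals, 7 held a CpG-rich promoter and 1, that of Rbm45, held a CTCF core match. Over all 585 promoter boundaries, 356 held a CpG-rich promoter and 16 (2.74%) a CTCF core match. Here a promoter was called CpG-rich when the 1 kb around the start had an observed over expected CG ratio of at least 0.6 and a GC content of at least 50%. Trim32 missed this definition narrowly, with a ratio of 0.596.

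Just outside the limit lay the interval shared by Etfdh, an electron transfer enzyme gene, and 4930579G24Rik at 2.003, the ATP synthase gene Atp5o and Tmem144 both at 2.08, and the cytochrome P450 gene Cyp2f2 at 2.09. The lowest scores among the promoter boundaries were those of Ep400, a chromatin remodelling gene (0.205), Kbtbd2, a ubiquitin ligase adaptor gene (0.205), Plekhg1 (0.206), the shared interval of the cyclin gene Ccni and 2010109A12Rik (0.206), and Rab5if (0.207). All 6 genes of these 5 lowest intervals had CpG-rich promoters, beside 63.2% of all 666 genes on promoter boundaries. The interval with 3 coding starts held Rad17, a DNA damage checkpoint gene, with Ak6, an adenylate kinase gene, and Taf9, a gene of the general transcription machinery, and scored 0.657.

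Promoter boundaries were richer in CG than other coding promoters. A CpG-rich promoter was found at 421 of the 666 genes (63.2%, 59.4 to 66.9%) against 9305 of the 21068 genes whose interval had no boundary (44.2%, 43.5 to 44.8%). The share was higher among promoter boundaries on 18 of 20 chromosomes, with a mean difference of 16.7 ± 9.60 percentage points (SD over 20 chromosomes, which are not biological replicates). Over the whole 5 kb interval, the median CG ratio was 0.389 (0.374 to 0.400) against 0.316 (0.313 to 0.320), again higher on 18 of 20 chromosomes. In boundaries with no coding start it was 0.170.

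Read the other way, a boundary was carried by 356 of 8725 intervals with a CpG-rich promoter (4.08%, 3.67 to 4.52%) and by 229 of 11387 without one (2.01%, 1.76 to 2.29%). The background is 2.91%. Across 10 equal classes of coding start intervals ranked by CG ratio, the share was 1.24% in the lowest, 2.34% in the fifth, 3.93% in the seventh, 4.57% in the ninth and 3.98% in the highest. Most of the climb thus lay below the seventh class, and the intervals of the upper classes overlap. Promoter boundaries with a CpG-rich promoter had a median score of 0.689 (0.628 to 0.749), against 0.559 (0.501 to 0.691) without one, and these intervals overlap.

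General base content hardly differed. The median GC content of the interval was 47.6% (47.2 to 48.0%) at promoter boundaries against 46.9% (46.8 to 47.0%) at coding starts without a boundary, a difference of 0.74 percentage points seen on 14 of 20 chromosomes. Repeats, read as soft-masked bases, covered a median of 22.5% against 21.3%. DpnII sites, on which the resolution of the map rests, numbered a median of 12 per interval in both groups. Both groups lay in gene-dense surroundings, with a median of 8 other coding starts within 250 kb, against 3 around boundaries with no coding start. The boundary share stayed between 2.42% and 3.13% over 4 classes of this gene density.

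CTCF core matches accompanied a minority of promoter boundaries. These are exact matches to the core consensus in the reference sequence, not measured binding, and sites that deviate from it are missed. A match lay in the interval or within 5 kb of it at 56 of 585 promoter boundaries (9.57%, 7.31 to 12.3%), against 6.16% (5.82 to 6.503%) of coding starts without a boundary and 10.2% (9.56 to 10.9%) of boundaries with no coding start. Inside the interval itself the shares were 2.74% (16 intervals) and 2.18%, with overlapping intervals. Within 20 kb they were 25.3% (21.8 to 29.0%) and 17.8% (17.2 to 18.3%). Boundaries with no coding start had a match in 3.88% (3.45 to 4.34%) inside the interval and 21.6% (20.7 to 22.6%) within 20 kb. Their order against promoter boundaries thus changed with the window, with overlapping intervals. Among promoter boundaries with starts on a single strand, 20 of 56 matches lay on the gene's strand and 36 on the opposite one (35.7% on the gene's strand, 23.4 to 49.6%). Of the same 56 matches, 34 lay upstream of the start and 22 downstream. Strand and side were counted at promoter boundaries only, so whether these splits are particular to boundaries was not tested. The exact interval around the strand share treats matches as separate, although several can lie at the same boundary.

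CG content and CTCF matches were combined to see which promoters carried boundaries most often. A boundary was found at 5.85% (4.09 to 8.08%) of CpG-rich coding start intervals with a match in the interval or within 5 kb, and at 3.95% (3.54 to 4.40%) of CpG-rich ones without. Where the promoter was not CpG-rich, the shares were 3.25% (2.05 to 4.89%) with a match and 1.93% (1.68 to 2.21%) without. CpG-rich promoters without a match thus lay above the background of 2.91%, and 322 of the 585 promoter boundaries were of this kind. Another 207 had neither feature, 34 had both and 22 had a match alone. The median scores were 0.809 (0.685 to 1.04) with both features, 0.670 (0.610 to 0.735) with a CpG-rich promoter alone, 0.553 (0.332 to 1.16) with a match alone and 0.559 (0.498 to 0.709) with neither.

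**Figure D2:**
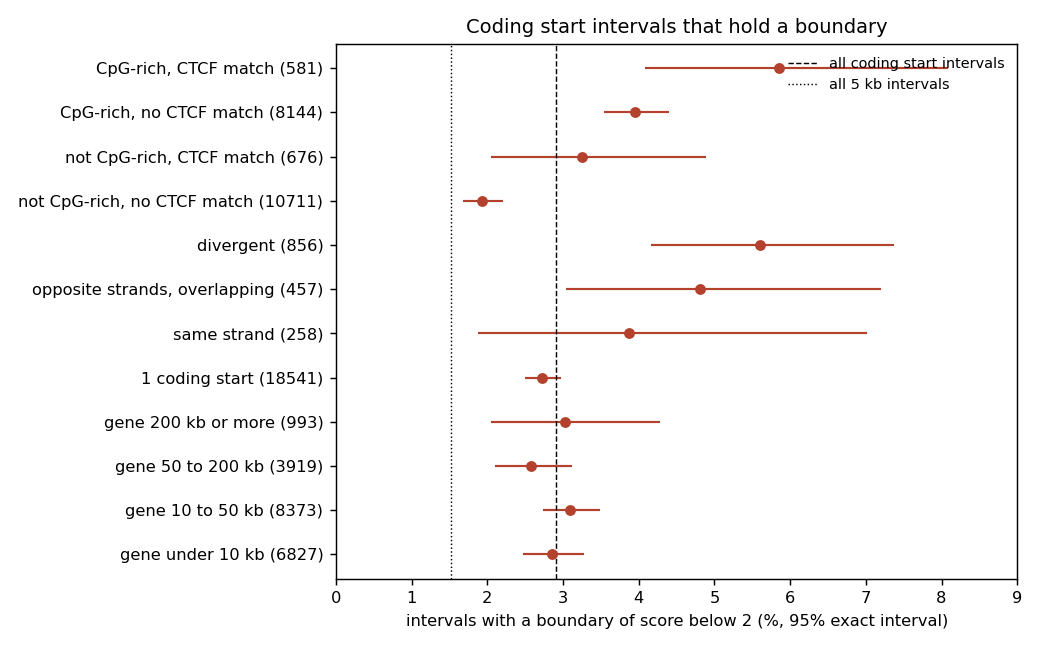
Share of coding start intervals that held a boundary of score below 2 (%, horizontal axis) for kinds of interval (rows, with the number of intervals), as points with exact 95% intervals. CpG-rich promoters with a CTCF match (5.85%) and divergent pairs (5.61%) lie to the right, promoters with neither a match nor CpG richness (1.93%) lie below the dashed line at 2.91%, and the 4 gene length classes stay near that line.

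Intervals with 2 coding starts, which need not share a promoter, carried boundaries more often than those with a single start. A boundary lay in 79 of 1504 intervals with 2 coding starts (5.25%, 4.18 to 6.504%) and in 505 of 18541 with a single start (2.72%, 2.49 to 2.97%), while intervals with 3 or more starts gave 1 of 67. Pairs transcribed away from each other, called divergent, had a boundary in 48 of 856 intervals (5.61%, 4.16 to 7.37%). Starts on opposite strands with overlapping transcripts had one in 22 of 457 (4.81%, 3.04 to 7.20%) and starts on the same strand in 10 of 258 (3.88%, 1.87 to 7.01%). The intervals of these 3 arrangements overlap. Divergent pairs made up 8.21% (6.11 to 10.7%) of promoter boundaries and 4.14% (3.86 to 4.43%) of coding start intervals without a boundary, and the share was higher on 16 of 20 chromosomes.

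The divergent pairs of highest score were Ptcd2 and Mrps27 (1.78, starts 81 bases apart), Cetn2 and Nsdhl (1.33, 146 bases apart) and Klc3 and Ckm (1.30, 672 bases apart). Cetn2 encodes the centriole protein centrin and Nsdhl an enzyme of cholesterol synthesis, while Klc3 encodes a kinesin light chain and Ckm the muscle creatine kinase. The median distance between the starts of a divergent pair was 138.5 bases at promoter boundaries (95 to 294) and 156 bases without a boundary (144 to 174). Divergent intervals with a CpG-rich promoter carried a boundary in 44 of 693 cases (6.35%, 4.65 to 8.43%), and single starts with a CpG-rich promoter in 281 of 7517 (3.74%, 3.32 to 4.19%). Intervals with 2 starts had a median score of 0.774 (0.610 to 0.928), against 0.624 (0.575 to 0.697) for single starts.

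Sequence motifs were counted in the 300 bases from 250 upstream to 50 downstream of each start, on both strands, as exact letters. A match is a description of the letters and not of binding. Where 2 starts lie close together, their windows overlap and 1 site can count for both genes. Divergent starts lay a median of 138.5 bases apart at promoter boundaries. Such pairs made up 8.21% of promoter boundaries and 4.14% of coding start intervals without a boundary. The exact intervals below treat genes as separate and are too narrow by an unmeasured amount. The ETS site (CCGGAAG) was found at 139 of the 666 genes on promoter boundaries (20.9%, 17.8 to 24.2%) and at 10.6% (10.1 to 10.97%) of the genes without a boundary, and the share was higher on 16 of 20 chromosomes. Since the site contains CG, the same counts were made within the 2 kinds of promoter. Among CpG-rich promoters it was found at 121 of 421 genes (28.7%, 24.5 to 33.3%), against 18.1% (17.4 to 18.9%) without a boundary. Among the others it was found at 18 of 245 genes (7.35%, 4.41 to 11.4%), against 4.55% (4.18 to 4.94%). Of all 2364 coding genes with the site, 5.88% (4.97 to 6.91%) had their start in a promoter boundary, beside the background of 3.06%.

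The stretches printed above come from genes of varied roles: Prim1 encodes a subunit of DNA primase, Cpt2 an enzyme of mitochondrial fatty acid import and Nek9 a mitotic kinase. The NRF1 site (GCATGCGC), which is bound by a regulator of nuclear genes for mitochondrial proteins, was found at 6.91% (5.10 to 9.11%) of genes on promoter boundaries against 3.28% (3.04 to 3.53%). Within CpG-rich promoters the shares were 9.03% (6.47 to 12.2%) and 5.98% (5.50 to 6.48%), whose intervals just overlap. Among promoters that are not CpG-rich they were 3.27% (1.42 to 6.33%, 8 of 245 genes) and 1.15% (0.963 to 1.36%). The YY1 site (AAGATGGC) was at 4.505% (3.06 to 6.37%) against 2.88% (2.66 to 3.12%), and the CRE site (TGACGTCA) at 3.45% (2.20 to 5.14%) against 2.42% (2.22 to 2.64%), each with overlapping intervals.

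The GC box (GGGCGG), bound by Sp family factors, was found at 55.6% (51.7 to 59.4%) of genes on promoter boundaries and 42.98% (42.3 to 43.6%) of the others. Within CpG-rich promoters its shares were 70.5% (65.9 to 74.9%) and 71.7% (70.8 to 72.7%). Among the others they were 29.8% (24.1 to 35.9%) and 20.2% (19.5 to 20.95%). The TATA box (TATAAA), the element of many tissue-specific promoters, was at 9.76% (7.61 to 12.3%) against 12.8% (12.3 to 13.2%). Within CpG-rich promoters its shares were 4.75% (2.93 to 7.24%) and 5.88% (5.41 to 6.38%). Among promoters that are not CpG-rich they were 18.4% (13.7 to 23.8%) and 18.2% (17.5 to 18.9%), so within each kind the intervals overlap. The CCAAT box (CCAAT) was at 35.4% (31.8 to 39.2%) against 38.98% (38.3 to 39.6%). The sites of the 2 factor families known for olfactory receptor enhancers showed no detectable surplus. The homeodomain site (TAATTA) was at 4.35% (2.94 to 6.19%) against 5.25% (4.95 to 5.56%), and the EBF site (CCCNNGGGA) at 5.86% (4.20 to 7.92%) against 7.86% (7.50 to 8.23%). Within CpG-rich promoters the EBF shares were 7.36% (5.06 to 10.3%) and 8.69% (8.13 to 9.29%). Among promoters that are not CpG-rich the EBF site was the rarer at promoter boundaries, with 3.27% (1.42 to 6.33%, 8 of 245 genes) against 7.20% (6.74 to 7.68%). Over all promoters, the E-box (CACGTG) stood at 7.96% against 7.81% and the ZNF143 site (ACTACAA) at 3.75% against 3.73%.

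**Figure D3:**
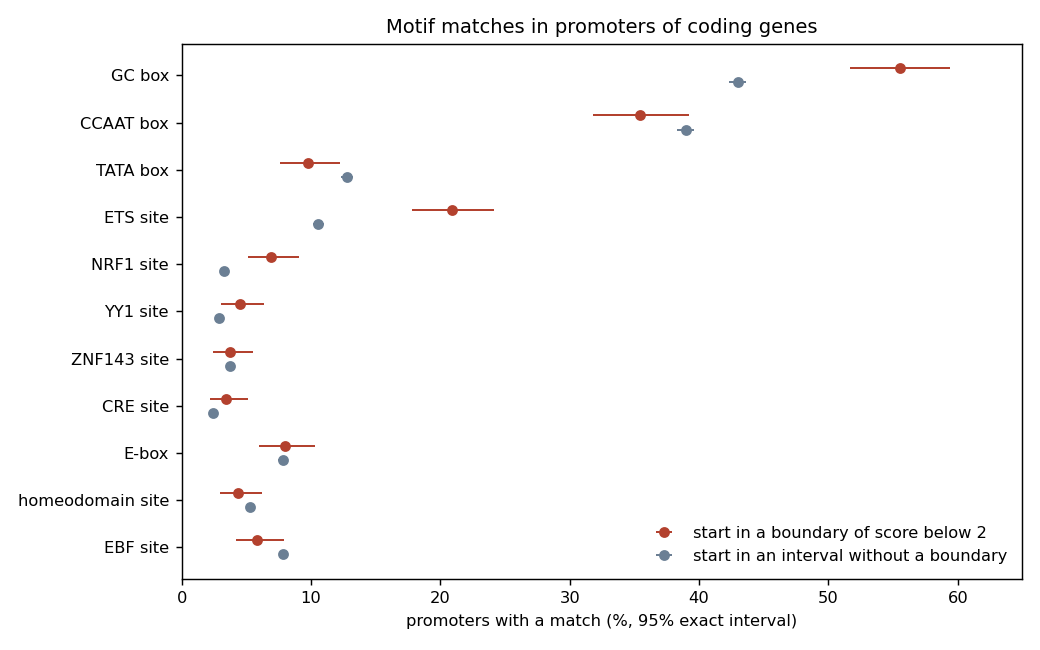
Share of promoters with an exact match (%, horizontal axis, points with exact 95% intervals) for 11 motifs, for the 666 genes that start in a promoter boundary and the 21068 genes whose start interval has no boundary. The ETS site (20.9% against 10.6%), the GC box (55.6% against 42.98%) and the NRF1 site (6.91% against 3.28%) stand higher at promoter boundaries, and the E-box and ZNF143 site coincide.

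Gene lists were counted by how many of their protein-coding members start in a promoter boundary, beside 3.06% of all protein-coding genes. Genes of the respiratory chain and ATP synthase, which carry out oxidative phosphorylation in mitochondria, had 12 of 86 starts in one (13.95%, 7.42 to 23.1%). The highest scores were those of Atp5a1, the alpha subunit of ATP synthase (1.17), Cox8a, a cytochrome c oxidase subunit (1.04), and Atp5s (0.841), which the symbol pattern takes although it is a coupling factor and no core subunit. The remaining 9 were Uqcrfs1 (0.735), Ndufb2 (0.690), Uqcrq (0.677), Uqcrh (0.610), Cox7a2l (0.610), Cox6a2 (0.607), Cox7b (0.456), Ndufv1 (0.309) and Cox6a1 (0.298). They cover complexes I, III and IV, and 9 of the 12 boundaries were Strong. Cox6a2 is the muscle form of its subunit, and Cox7a2l a factor of supercomplex assembly.

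Cytosolic ribosomal protein genes had 9 of 82 starts in a promoter boundary (10.98%, 5.14 to 19.8%), with generally low scores and a median of 0.376. The highest was Rpl3l at 1.27, which is the muscle paralog of Rpl3. Rpl9 followed at 0.998, Rpl35 at 0.622 and Rpl37a at 0.575. Rpl23 (0.376), Rps10 (0.291), Rps21 (0.240) and Rps6 (0.211) were Weak. Translation factor genes had 6 of 67 (8.96%, 3.36 to 18.5%), among them the RNA helicase gene Eif4a1 (0.919) and Eif5b (0.309). This pattern also takes the regulator Eif4ebp2 (0.995), a repressor of cap-dependent initiation, and the methyltransferase gene Eef2kmt (0.410).

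CpG-rich promoters are common in these lists. They made up 70.9% of the respiratory chain genes, 82.9% of the ribosomal protein genes and 83.6% of the translation factor genes. Of all CpG-rich coding genes, 4.32% (3.93 to 4.75%) started in a promoter boundary. The interval of the translation factor genes (3.36 to 18.5%) includes this share, so that list cannot be told from CpG-rich genes in general. Other lists of mostly CpG-rich genes gave lower shares, with intervals that overlap those of these 3 lists. Mitochondrial ribosomal protein genes, 79.5% of them CpG-rich, had 3 of 78 (3.85%, 0.800 to 10.8%), led by Mrps27 (1.78) and Mrps10 (1.04). Splicing factor genes (85.2% CpG-rich) had 3 of 61 (4.92%, 1.03 to 13.7%), namely Lsm11 (1.28), Snrpf (1.15) and Sf3b3 (0.928). Genes of RNA polymerase II and Mediator (81.4%) had 0 of 43 (exact interval up to 8.22%), kinesin genes (82.1%) 0 of 39 (up to 9.03%) and tRNA synthetase genes (75.7%) 0 of 37 (up to 9.49%).

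Other housekeeping lists had intervals that include the background of 3.06%. Chaperone genes had 5 of 71 (7.04%, 2.33 to 15.7%), with Dnajc11 (1.16), Dnajc13 (0.623) and Dnajc16 (0.397) highest. Proteasome genes had 3 of 49 (6.12%, 1.28 to 16.9%), namely the ATPase subunit gene Psmc4 (1.13), whose interval also held a CTCF core match, Psmb7 (0.606) and Psmd11 (0.566). DNA replication genes had 2 of 36 (5.56%, 0.680 to 18.7%), the primase gene Prim1 (1.62) and the helicase gene Mcm9 (0.439). Vacuolar ATPase genes had 0 of 23 (exact interval up to 14.8%).

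Developmental and neuronal genes stayed near the background or could not be told from it. Homeobox and Sox genes had 4 of 117 (3.42%, 0.939 to 8.52%), among them Hoxd13 (1.03), which patterns limbs, with Sox9 (0.497) and Hoxc13 (0.272). Potassium channel genes had 2 of 94, Kcnma1 (1.16) and Kcnq3 (0.685). Solute carrier genes had 8 of 371 (2.16%, 0.935 to 4.20%), led by Slc45a1 (1.45), Slc25a51 (1.15) and Slc35f6 (0.934). Zinc finger (Zfp) genes had 9 of 394 (2.28%, 1.05 to 4.29%), led by Zfp287 (1.33), Zfp319 (0.691) and Zfp605 (0.527). Histone genes had 2 of 67, Hist1h4h and Hist1h2af, which start in the same interval (0.441). Keratin genes had 0 of 53 (exact interval up to 6.72%), clustered protocadherin genes 0 of 57 (up to 6.27%) and cytochrome P450 genes 0 of 100 (up to 3.62%), although the P450 gene Cyp2f2 lay just above the score limit.

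None of the 22 genes of OSN function, among them Omp, Gnal, Adcy3 and Cnga2, started in a promoter boundary, and the exact interval allows a share of up to 15.4%. Of 25 genes for receptor choice and nuclear architecture, 1 did: Ehmt1, a histone H3K9 methyltransferase gene (0.875). Of 20 axon guidance and adhesion genes it was Efna5, which encodes an ephrin ligand (0.946). Of 14 genes of immature OSNs and progenitors it was Tead2, a transcription factor of the Hippo pathway (1.02). Sox9 and Fmo2 (0.331) were 2 of 12 supporting and basal cell genes, and Hbb-bs, a beta-globin gene (0.431), was 1 of 16 genes of blood, vessels and glia.

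**Figure D4:**
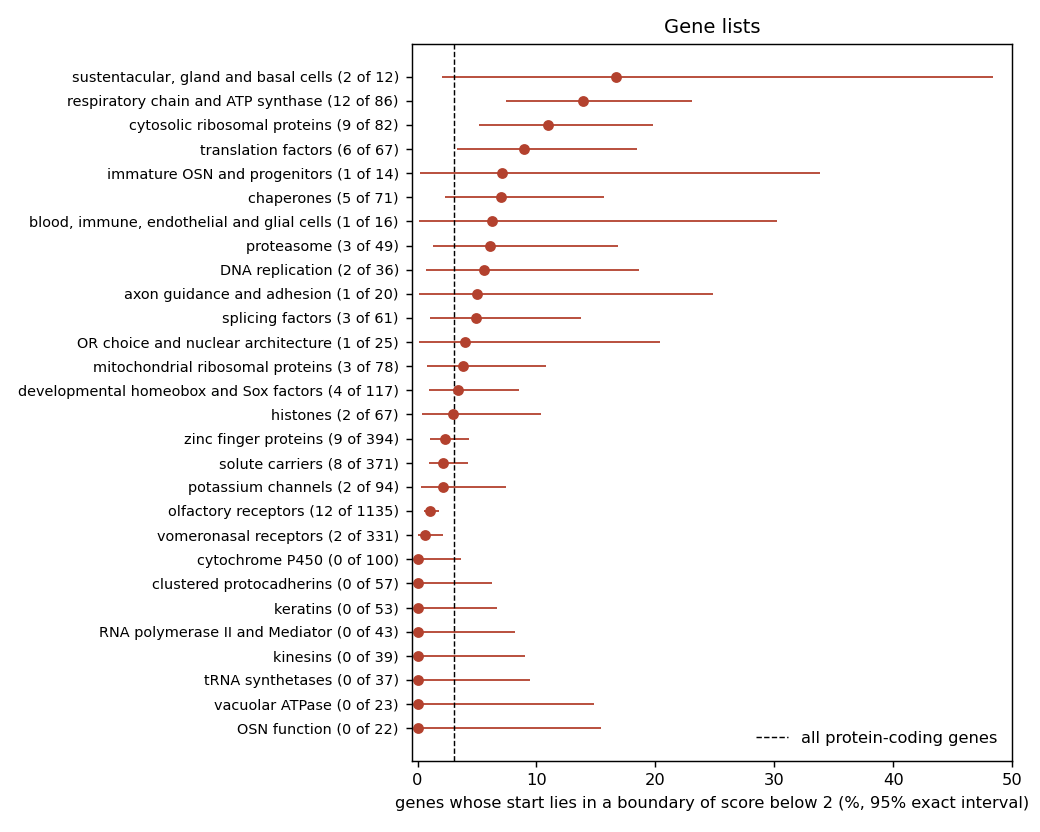
Share of the protein-coding genes of each list that start in a boundary of score below 2 (%, horizontal axis, points with exact 95% intervals, counts in the row names). The dashed line marks 3.06% of all protein-coding genes. Respiratory chain (13.95%), ribosomal protein (10.98%) and translation factor genes (8.96%) have intervals wholly above it, and olfactory (1.06%) and vomeronasal receptor genes (0.604%) have intervals wholly below it.

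Receptor promoters seldom carried a boundary. Olfactory receptor genes had 12 of 1135 starts in one (1.06%, 0.547 to 1.84%), beside the background of 3.06%. Vomeronasal receptor genes, which detect pheromones, had 2 of 331 (0.604%, 0.0733 to 2.17%). CpG-rich promoters made up 0% and 0.302% of these lists. Of all coding genes without a CpG-rich promoter, receptor genes included, 2.04% (1.79 to 2.31%) started in a promoter boundary. The olfactory receptor interval overlaps that of this share, and the vomeronasal one includes the share. Intervals that held starts of tandem receptor families only made up 14 of the 585 promoter boundaries (2.39%, 1.31 to 3.98%) and 7.47% (7.10 to 7.85%) of coding start intervals without a boundary. The share among promoter boundaries was the lower on 17 of 20 chromosomes, but this count says little where receptor starts are rare. On chromosome 18, for example, it was 0% of 13 against 0.212%, and on chromosome 8 it was 0% of 31 against 0.554%. With intervals that held a receptor start left out, promoters that are not CpG-rich still carried a boundary less often (2.17%, 1.89 to 2.48%) than CpG-rich ones (4.08%). This share, counted by interval and not by gene, lies above the exact interval of the olfactory receptor genes (0.547 to 1.84%). It overlaps that of the vomeronasal ones.

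Scores of the receptor boundaries were mostly low, with a median of 0.400 for the 12 olfactory receptor genes. Olfr311 scored 1.74 (chromosome 11 at 58835001 to 58840000), Olfr172 1.17 (chromosome 16), Olfr90 0.900 and Olfr99 0.691 (both chromosome 17) and Olfr850 0.608 (chromosome 9). These 5 were Strong. Chromosome 9 also carried Olfr972 (0.360), Olfr857 (0.342), Olfr898 (0.257) and Olfr881 (0.241), and chromosome 2 carried Olfr1238 (0.441) and Olfr1080 (0.270), with Olfr1495 (0.216) on chromosome 19. The vomeronasal receptor genes were Vmn1r55 (0.541) and Vmn1r84 (0.446), both on chromosome 7. Whether reads in these families of similar genes were mapped less completely was not tested.

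The position of boundaries was then followed along the direction of transcription. Of all 21755 coding genes, 3.06% had a boundary of score below 2 in the interval of the start. The interval 5 kb upstream had one at 2.83% (2.62 to 3.06%) and the interval 5 kb downstream at 2.26% (2.06 to 2.46%). From 5 to 50 kb the mean was 2.19% per interval upstream and 1.81% downstream, so that 54.8% of these flanking boundaries lay upstream. The upstream side was the higher on 20 of 20 chromosomes. A boundary between neighbouring genes is counted for each of them.

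This imbalance grew with the length of the gene. For the 2489 genes over 100 kb, the mean share was 2.70% per interval upstream and 1.02% downstream, a ratio of 2.66. For the 11687 genes under 20 kb it was 2.05% and 2.02%, a ratio of 1.01. The share at the start itself was alike in both classes, 3.13% (2.48 to 3.90%) for the long genes and 3.05% (2.75 to 3.38%) for the short ones. For the 2712 genes with no other coding start within 100 kb, the means were 2.30% upstream and 1.06% downstream, a ratio of 2.17. In these isolated genes the interval of the start (2.36%, 1.82 to 3.004%) did not exceed the one 5 kb upstream (2.84%, 2.25 to 3.54%).

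**Figure D5:**
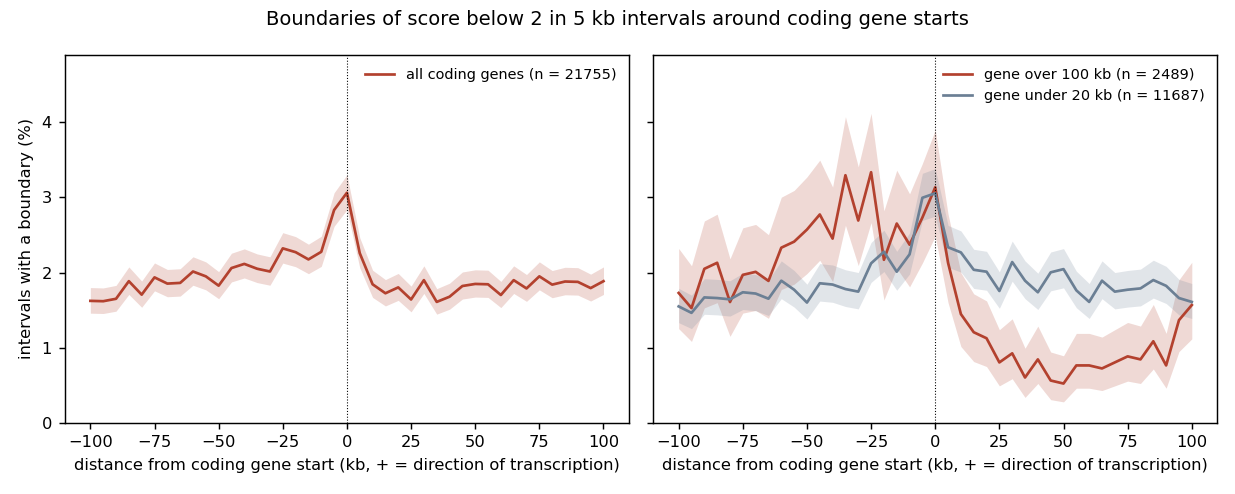
Share of 5 kb intervals with a boundary of score below 2 (%, vertical axis) by distance from the start of coding genes (kb, horizontal axis, positive in the direction of transcription), with bands for exact 95% intervals. All 21755 genes are on the left, with a peak of 3.06% at the start. On the right, genes over 100 kb stay low downstream of the start, and genes under 20 kb are nearly even on both sides.

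The difference in gene length depended on how starts were defined and counted. By the gene record, the 666 genes had a median length of 17.8 kb (15.2 to 20.1 kb), against 17.4 kb (16.99 to 17.9 kb) for genes without a boundary at the start. With any transcript start in place of the gene record, the difference was -8.39 kb (-10.5 to -6.27 kb). In that count a gene entered once for each interval with one of its transcript starts, so it could repeat and enter both groups. The interval of the difference covers the median at promoter boundaries only. The boundary share by length class ran from 2.58% for genes of 50 to 200 kb to 3.09% for genes of 10 to 50 kb. Within the 5 kb interval the starts were spread almost evenly, with 18.3% to 22.1% of the 666 starts in each kb, so the position of a boundary relative to the start is not resolved below the interval.

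Domains on both sides of promoter boundaries were of similar size. Among 513 with starts on a single strand, the next boundary lay a median of 220 kb away downstream (205 to 235 kb) and 225 kb upstream (210 to 235 kb). The downstream domain was the larger at 262 and the upstream one at 246 (51.6% downstream, 47.1 to 56.0%). Counting both sides, the next boundary lay a median of 220 kb (210 to 225 kb) from promoter boundaries and 265 kb (260 to 270 kb) from boundaries with no coding start. Of the 78 genes on promoter boundaries of 100 kb or more, 18 (23.1%, 14.3 to 33.997%) had another boundary within the gene body, against 47.8% (45.8 to 49.8%) of long genes with no boundary at the start. No 2 boundaries in the list lie closer than 45 kb, so part of this difference is built into the list.

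Other annotated starts were sparse in the promoter boundaries. A miRNA start lay in 15 (2.56%, 1.44 to 4.19%), against 1.20% (1.06 to 1.37%) of coding start intervals without a boundary. A long noncoding RNA annotated as sharing a bidirectional promoter started in 10 (1.71%, 0.823 to 3.12%), against 0.810% (0.689 to 0.946%), with overlapping intervals. Antisense RNA starts were the rarer at promoter boundaries, with 13 (2.22%, 1.19 to 3.77%) against 4.01% (3.74 to 4.30%). Starts of lincRNAs stood at 2.22% against 2.18%, and the 3′ end of another coding gene at 9.06% against 8.11%. A coding start in a neighbouring interval was found at 91 promoter boundaries (15.6%, 12.7 to 18.8%), against 11.8% (11.4 to 12.3%).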

How the data were processed

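The deposited list gives 5 kb intervals, a class and a score per boundary. Per the labels and the design text of the series, the authors combined the contacts of both in situ Hi-C replicates in 1 matrix (GRCm38), from which the boundaries were called. For the mapper, the caller, its window and the score's scale, nothing is given in the sources used here. From the values, Weak covers scores up to 0.5 and Strong those above. Contact matrices and tracks were not used here, so the depth is unknown.

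Bases were read from the GRCm38.p6 genome and genes from GENCODE mouse release 21, on chromosomes 1 to 19 and X. A gene's start was the 5′ end of its gene record. Motifs were searched on both strands as exact letters, and CTCF core matches within 5 kb of the interval. Shares, medians and intervals were computed in Python 3.11.15 with numpy 2.4.6 and scipy 1.17.1, and the procedures were tested on simulated data. No tests were run, because 1 pooled list gives no replicate spread.

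The boundaries, gene lists, motifs and measures were chosen with earlier results of these data known. The genes named were those on the 15 highest scores below 2, the 5 just above, the 5 lowest and the 3 intervals with most starts, and up to 3 members per list with the highest score. Some genes that this rule takes are not reported here. Further members of the ribosomal protein, respiratory chain, translation factor, homeobox and receptor lists, the divergent pairs and the genes of the printed sequences are named beside them, chosen after their values were seen. Alternatives were no upper score limit, scores over 0.5, neighbouring intervals, any transcript start, autosomes, no receptor families, no automatically annotated genes and other CTCF windows.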

Additional observations from a re-analysis of the deposited data

How the results depend on the processing

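No paired analysis was possible because both replicates were pooled into 1 list, and no replicate could be left out. Of 106 alternative values, 88 stayed within the interval of the value reported (for the number of promoter boundaries, within 1.5 times it) and no difference other than that in gene length changed sign. The gene length difference, 0.40 kb as reported, was -0.731 kb with neighbouring intervals and -1.205 kb without receptor families, with intervals that include 0. The number of promoter boundaries was 368 with scores over 0.5 only (1.83% of coding start intervals). It was 976 with any transcript start (2.31% of the intervals with such a start). With neighbouring intervals included it was 1455, and 7.87% of coding start intervals had a boundary in or beside them. With any transcript start, the difference between promoter boundaries and coding starts without one was 1.2 points in GC content, 0.0552 in CG ratio, -8.39 kb in gene length, -2.27 points in the receptor share and 8.92 points in the CpG-rich share. That CpG-rich share was still read around the start of the gene record, which need not be the start in the interval. For it and for gene length, a gene counted once for each interval with one of its transcript starts. Without receptor families the CG ratio difference was 0.0564 and the receptor share difference 0 by construction. The CTCF match difference was 0.551 points in the interval alone and 7.55 points within 20 kb. With scores over 0.5 the CpG-rich difference was 22.9 points and the ETS site difference 13.98 points, and with neighbouring intervals the ETS difference was 7.05 points. The CTCF windows and the alternatives for the CpG-rich, ETS and upstream shares were chosen after seeing the data. For the other changes the cause was not tested. The contact depth, the replicate spread and the caller's settings limit every value, and no value below 5 kb can be resolved.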
